A study of Mus musculus with 42 samples.

Results

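The metallothionein and zinc handling genes were followed across mouse uterine natural killer cells: the metallothioneins Mt1 and Mt2, the metal-sensing transcription factor Mtf1, the zinc exporter Slc30a1 and the zinc importers Slc39a10 and Slc39a14. These 6 genes, of 54353 genes shared by all bulk RNA-seq count tables, were taken as a fixed list, chosen because Mt1 and Mt2 had been seen to mark late tissue-resident NK (trNK) cells in these data. Their levels in the sorted trNK subsets and in the single cells were therefore selected on and are given as a description, with no test. All 6 genes were in every bulk table and passed the filter on low counts in each of 4 experiments, while 4 of them, Mt1, Mt2, Slc39a10 and Slc39a14, were among the 35237 genes of the single-cell matrix. Mtf1 and Slc30a1 were not analysed here in single cells.

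The bulk data held 34 libraries in 17 groups of 2 from C57BL/6 mice of 8 to 12 weeks. In the gestation experiment, trNK cells (CD45+NK1.1+NKp46+CD49a+CXCR6-) came straight from the uterus of virgin mice or of mice at gestational day (gd) 6.5 or 8.5. In the subset experiment, gd8.5 trNK cells were split by CD55 and 4-1BB into low (CB_low, trNK-V, the virgin-like cells), intermediate (CB_int, trNK-D, differentiating) and high (CB_hi, trNK-T, terminal). In the 72 h culture, trNK-V cells from gd6.5 mice were grown without IL-21 (trNK_ctrl), with 20 ng/mL IL-21, or with IL-21 and Stattic, an inhibitor of STAT3, at 1 µM by the labels, where the methods give the dose in mM. The methods give IL-15 in the medium of cultured trNK cells, and the labels of this culture do not name it. In the time course, trNK-V cells from gd6.5 mice were held in IL-15 (10 ng/mL by the treatment label, a higher dose by the treatment protocol) with or without 20 ng/mL IL-21 and taken at 0, 6, 24 and 72 h. All groups were wild type, and the cultured cells were re-isolated as live NK1.1+ cells in the 72 h culture. The single cells were CD45+NK1.1+NKp46+ cells pooled from 5 virgin and 2 gd8.5 uteri, and the cells could not be assigned to either source here, so they were treated as 1 sample. Nothing in the labels says whether the 2 libraries of a group came from separate animals or cultures, so the p-values measure only the spread between those libraries.

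Metallothioneins are small cysteine-rich proteins that bind zinc and copper and buffer the free metal in the cell. When free zinc rises, the zinc finger factor MTF1 binds short metal response elements in promoters and turns on the metallothionein genes and the exporter gene Slc30a1. Slc30a1 (ZnT1) moves zinc out across the plasma membrane, whereas Slc39a10 (ZIP10) and Slc39a14 (ZIP14) bring it into the cytosol, and Slc39a14 also carries iron and manganese. Slc39a14 and the metallothioneins are known in liver as genes that rise with inflammatory cytokines, and metallothionein genes also respond to glucocorticoids and to oxidative stress.

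Mt1 and Mt2 lie side by side on chromosome 8 (GRCm38). Mt1 spans 94179082 to 94180327 and Mt2 spans 94172664 to 94173568, both on the plus strand. Their promoters are shown because both genes carry the core of the metal response element more than once. The windows below are RefSeq sequence (GRCm38.p6) from 250 bases before to 30 bases after the RefSeq start (94179089 for Mt1 and 94172618 for Mt2, which differ from the starts in the count tables given above), chr8:94178839-94179118 for Mt1 and chr8:94172368-94172647 for Mt2, on the plus strand and 5′ to 3′. Capitals mark each match to TGCACNC or TGCGCNC, searched on both strands, where N is any base.

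Mt1: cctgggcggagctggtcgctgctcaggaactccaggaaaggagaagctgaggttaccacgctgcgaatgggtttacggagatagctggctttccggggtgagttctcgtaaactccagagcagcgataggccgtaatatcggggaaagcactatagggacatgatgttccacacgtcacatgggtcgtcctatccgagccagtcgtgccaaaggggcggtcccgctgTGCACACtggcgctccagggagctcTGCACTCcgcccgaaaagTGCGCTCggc

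Mt2: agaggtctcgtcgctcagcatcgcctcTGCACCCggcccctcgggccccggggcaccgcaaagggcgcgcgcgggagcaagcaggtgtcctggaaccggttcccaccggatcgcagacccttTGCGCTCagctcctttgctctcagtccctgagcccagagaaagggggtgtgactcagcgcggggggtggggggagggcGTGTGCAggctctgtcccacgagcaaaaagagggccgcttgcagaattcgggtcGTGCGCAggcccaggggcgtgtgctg

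The Mt1 window held 3 matches, all reading as printed, beginning 23 bases before the RefSeq start and at positions 3 and 21 after it. The Mt2 window held 4, beginning 223, 128 and 50 bases before the start and at position 5, of which the last 2 read on the other strand. Of 32851 mouse promoter windows of the same length, 24.1% held at least 1 match, 1.73% held 3 or more and 0.405% held 4 or more. Among the other genes, a promoter window was available for Slc30a1, with 1 match, and for Mtf1 and Slc39a10, with 0. A match describes the letters of the window and was not a measurement of MTF1 binding. Bases outside the windows were not searched, so these counts need not hold every element of a promoter. Positions are relative to the RefSeq start used here, and where transcription began in these cells was not examined.

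Total counts ranged from 11861343 to 66462748 reads per bulk library. The 4 trNK markers (Itga1, Eomes, Ncr1 and Klrb1c) had counts in all 34 libraries and summed to 828 to 3470 CPM (read counts scaled to a common library total). The libraries of virgin mice stood apart from each other: 11 late trNK markers, among them Tnfrsf9, Cd55 and Gzmb, summed to 2100 CPM in replicate 1 and 27500 CPM in replicate 2, against 22400 to 33300 CPM in the 4 libraries of pregnant mice. The 72 h libraries of the time course were also unlike the earlier ones, with 10724 to 13996 genes detected and 4.37% to 11.8% of counts from mitochondrial genes. Levels below are RPKM (reads per kilobase of gene length, scaled to equal library totals). Between genes they are only a rough guide, since they depend on the annotated length. For Mt1 that length, 1246 bases, covers the whole span of the gene. In bulk libraries, fewer cells of a type and less RNA per cell cannot be told apart.

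Mt1 had the highest bulk level of the 6 genes, a rank over Mt2 that is uncertain for the reason given below. It was higher at each step through the sorted subsets. Its level was 16 and 23.7 RPKM in the 2 trNK-V libraries, 357 and 241 RPKM in trNK-D, and 970 and 481 RPKM in trNK-T. The subsets did not overlap, and the lowest trNK-D library stood far above both trNK-V libraries. The log2 fold change was 4.02 ± 0.41 (SE, n = 2 per group) for trNK-D against trNK-V, 1.35 ± 0.36 for trNK-T against trNK-D and 5.37 ± 0.43 for trNK-T against trNK-V, the last a 41.4-fold difference. The median log2 fold change of all 14335 genes in the same fit was 0.01, -0.03 and -0.05. Macrophage markers, genes of a cell type that also carried Mt1 in the single cells, did not keep the order of Mt1. They were higher in both trNK-D libraries than in trNK-V replicate 1, as Mt1 was, but lowest in trNK-T. All 6 of them had counts in both trNK-D libraries, and their sum was 31.2 and 369 CPM in trNK-V, 310 and 429 CPM in trNK-D, and 4.98 and 6.66 CPM in trNK-T, with 1 of the 6 at 0 in both trNK-T libraries. The 11 late markers, which include the sort genes Cd55 and Tnfrsf9, kept the order of Mt1, at 5490 and 5550 CPM in trNK-V, 19900 and 22300 CPM in trNK-D and 36300 and 48900 CPM in trNK-T. Markers of conventional NK (cNK) cells went from 1810 and 2970 CPM in trNK-V to 383 and 434 CPM in trNK-T, and those of ILC1 cells from 169 and 301 CPM to 2.46 and 2.61 CPM. T cell markers went from 388 and 378 CPM in trNK-V to 74.9 and 58.8 CPM in trNK-T. Stromal markers were at 344 CPM in trNK-V replicate 1 and at most 29.2 CPM in the other 5 libraries. Of the epithelial and endothelial markers, Epcam and Pecam1 were the members with more reads in both trNK-T than in both trNK-V libraries, with Krt8 at 0 in all 6 libraries. The part of these markers in the levels of Mt1 was not tested.

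Mt2 followed the same order at far lower counts. It had 1 and 1 read in trNK-V, 57 and 28 in trNK-D and 124 and 45 in trNK-T, which is 14 and 6.45 RPKM in the last. In no bulk library did Mt2 reach 1% of the count of Mt1: the share ran from 0% to 0.755% over the 34 libraries. In the single cells, where reads are counted from the 3′ end, the pair was near parity, with 68468 UMIs (unique molecular identifiers) of Mt1 and 58432 of Mt2 over all 15175 cells. Of the 588 exon bases of Mt2, 432 (73.5%) are shared with Gm45774, an antisense gene on the minus strand (chromosome 8, 94170748 to 94173412), whose own count was at most 10. Exon bases of Mt1, Slc39a10 and Slc39a14 are shared with no other gene, and those of Mtf1 and Slc30a1 to 8.09% and 8.92%. Whether the overlap set the low bulk counts of Mt2 was not tested, and bulk values of Mt2 are uncertain for this reason.

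Slc39a14, on chromosome 14 (70303469 to 70351425, minus strand), was the importer with the same order of subsets. It was at 1.31 and 2.38 RPKM in trNK-V, 5.02 and 5.49 RPKM in trNK-D and 7.55 and 8.38 RPKM in trNK-T. The subsets again kept to separate ranges, with a log2 fold change of 1.62 ± 0.33 for trNK-D against trNK-V, 0.67 ± 0.32 for trNK-T against trNK-D and 2.3 ± 0.33 for trNK-T against trNK-V (SE, n = 2 per group). The other 3 genes showed no such order. Mtf1 (chromosome 4, 124802104 to 124849800) lay between 1.73 and 3.01 RPKM in all 6 subset libraries, and its log2 fold change for trNK-T against trNK-V was -0.09 ± 0.38. The exporter Slc30a1 (chromosome 1, 191906767 to 191913247) was at 0.334 and 0.285 RPKM in trNK-V, 1.32 and 0.504 in trNK-D, and 0.633 and 0.161 in trNK-T, so its trNK-T libraries lay on both sides of trNK-V. Slc39a10 (chromosome 1, 46807544 to 46892852) lay between 1.83 and 5.38 RPKM, and all 3 subsets overlapped.

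**Figure D1:**
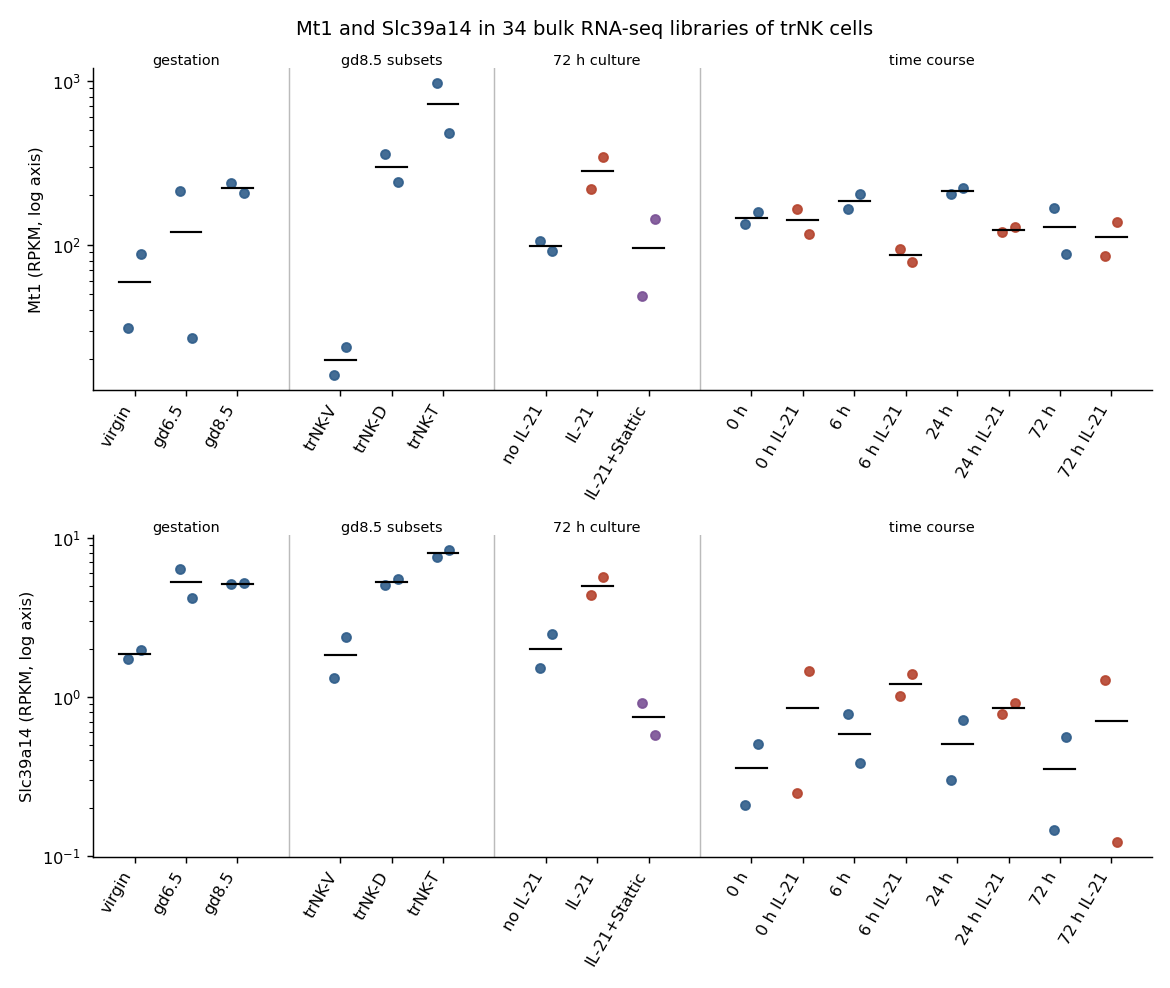
Level in RPKM (log axis) of Mt1 and Slc39a14 in each of the 34 bulk libraries, 1 point per library and a line at the mean of each group, with the groups along the horizontal axis (red with IL-21, purple with IL-21 and Stattic). Mt1 runs from 16 RPKM in trNK-V to 970 RPKM in trNK-T. The time course was made with another kit, so levels are not compared between experiments.

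The gestation libraries ask whether the levels differ between virgin and pregnant uterus. The genes were chosen for late trNK cells and not on these comparisons, but with earlier results of the same libraries known, so the tests are not independent of that choice. Mt1 was at 31 and 87.6 RPKM in virgin mice, 214 and 26.9 RPKM at gd6.5, then 240 and 206 RPKM at gd8.5. Virgin and gd8.5 libraries kept apart, the latter higher, while 1 gd6.5 library was above and 1 below the virgin pair. The log2 fold change was 1.87 ± 0.92 at gd8.5 (SE, n = 2 per group, unadjusted p = 0.0829, adjusted p = 0.551, edgeR quasi-likelihood test) and 0.98 ± 0.9 at gd6.5 (adjusted p = 0.648), so neither passed. With no filter on low counts edgeR called Mt1 at gd8.5, at 1.85 ± 0.26 (adjusted p = 4.07e-10), while the adjusted p of the other settings lay between 0.407 and 0.713. Without replicate 2 of the virgin mice, the library with high late markers, the gd8.5 value was 2.9 ± 1.07 (edgeR adjusted p = 0.168), and without replicate 1 it was 1.27 ± 0.93 (edgeR adjusted p = 0.663). The gd6.5 value was 1.82 without gd6.5 replicate 2 and -1.24 without gd6.5 replicate 1, so its sign rested on 1 library. The late markers, summed as above, moved with Mt1 within the virgin pair, and their part in these differences was not tested. Mt2 had 0 and 2 reads in virgin mice, 41 and 0 in the gd6.5 pair, then 38 and 28 in the gd8.5 pair, which puts the low gd6.5 library of Mt1 at 0 for Mt2 as well.

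Slc39a14 separated virgin from pregnant libraries more tightly than Mt1. It was at 1.73 and 1.98 RPKM in virgin mice, 6.32 and 4.2 RPKM at gd6.5, then 5.12 and 5.17 RPKM at gd8.5. All 4 libraries of pregnant mice lay above both virgin libraries. Other markers also set the virgin pair apart. Mast markers were at 26.5 and 29.3 CPM in virgin mice and 7.37 to 16.6 CPM in pregnant mice, and macrophage markers at 12.3 and 8.63 CPM and 1.84 to 6.88 CPM. The mast sum was of Kit and Cpa3, with Mcpt4 and Tpsb2 at 0 in each of these libraries. Endothelial markers were at 82.5 and 182 CPM and 213 to 277 CPM. Nearly all of that was Pecam1, which had reads in every bulk library, while Cdh5 had at most 3 reads and Kdr at most 14 in a gestation library. Whether these sums reflect mast or endothelial cells was not tested. Erythroid markers reached 666 CPM in gd8.5 replicate 2 and 173 CPM in virgin replicate 2. The part of these and of the late markers, summed as above, in the difference of Slc39a14 was not tested. The log2 fold change was 1.47 ± 0.29 at gd6.5 (unadjusted p = 0.00168, adjusted p = 0.101) and 1.46 ± 0.29 at gd8.5 (unadjusted p = 0.00175, adjusted p = 0.263) in edgeR, which is about 2.77-fold and 2.75-fold and does not pass after adjustment over all genes. DESeq2 called it in both comparisons, with adjusted p = 8.53e-04 and 0.00211, and edgeR called it in both when virgin replicate 2 was left out, at 1.66 ± 0.34 (adjusted p = 0.0275) and 1.63 ± 0.34 (adjusted p = 0.041). That fit holds a single virgin library, assumed to vary like the other groups. Without virgin replicate 1 the edgeR adjusted p was 0.0807 and 0.203, without a gd6.5 library it was 0.647 and 0.281 for gd6.5, and without a gd8.5 library it was 0.632 and 0.787 for gd8.5, none of them a call. Between gd6.5 and gd8.5 its log2 levels differed by -0.01 ± 0.29.

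Slc39a10 went the other way at gd8.5. Its level was 3.19 and 5.51 RPKM in virgin mice, 4.79 and 5.75 RPKM at gd6.5, then 1.5 and 2.64 RPKM at gd8.5, so both gd8.5 libraries lay below the other 4. The log2 fold change was -1.31 ± 0.43 against gd6.5 (unadjusted p = 0.0189, adjusted p = 0.323) and -1.1 ± 0.43 against virgin (unadjusted p = 0.0383, adjusted p = 0.469) by edgeR. The value against virgin was -0.57 without virgin replicate 2 and -1.58 without gd8.5 replicate 2. Slc30a1 was at 1.17 and 1.07 RPKM in virgin mice and between 0.226 and 0.787 RPKM in the 4 libraries of pregnant mice, all below the virgin pair, with log2 fold changes of -1.2 ± 0.79 (gd6.5) and -1.07 ± 0.79 (gd8.5). Mtf1 was at 1.89 and 1.66 RPKM in virgin mice and between 2.22 and 2.93 RPKM in pregnant mice, 0.54 ± 0.3 higher on the log2 scale at either day. Neither Slc30a1 nor Mtf1 passed, with edgeR adjusted p-values of 0.406 to 0.689. The gd6.5 value of Slc30a1 was -2.3 without gd6.5 replicate 2 and -0.57 without gd6.5 replicate 1, and the gd8.5 value of Mtf1 ran from 0.3 to 0.72 over the libraries left out.

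By edgeR, then, 0 of the 6 genes were called (adjusted p under 0.05 with more than a 2-fold difference) for gd6.5 against virgin, where 0.0356% of all 14040 genes tested were called, and 0 for gd8.5 against virgin, where again 0.0356% were. For gd8.5 against gd6.5, 0 of 6 were called and 0% of all genes. At an unadjusted p below 0.05 the counts were 1, 2 and 1 of 6, against 17.2%, 10.0% and 11.7% of all genes. DESeq2 called 1, 1 and 0 of 6 beside 5.91%, 2.41% and 2.18% of all genes, and limma called 0 in each, beside 143, 8 and 0 of all genes. Without virgin replicate 2, 7.38% and 4.17% of all genes were called by edgeR, and 1 of 6 in each.

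**Figure D2:**
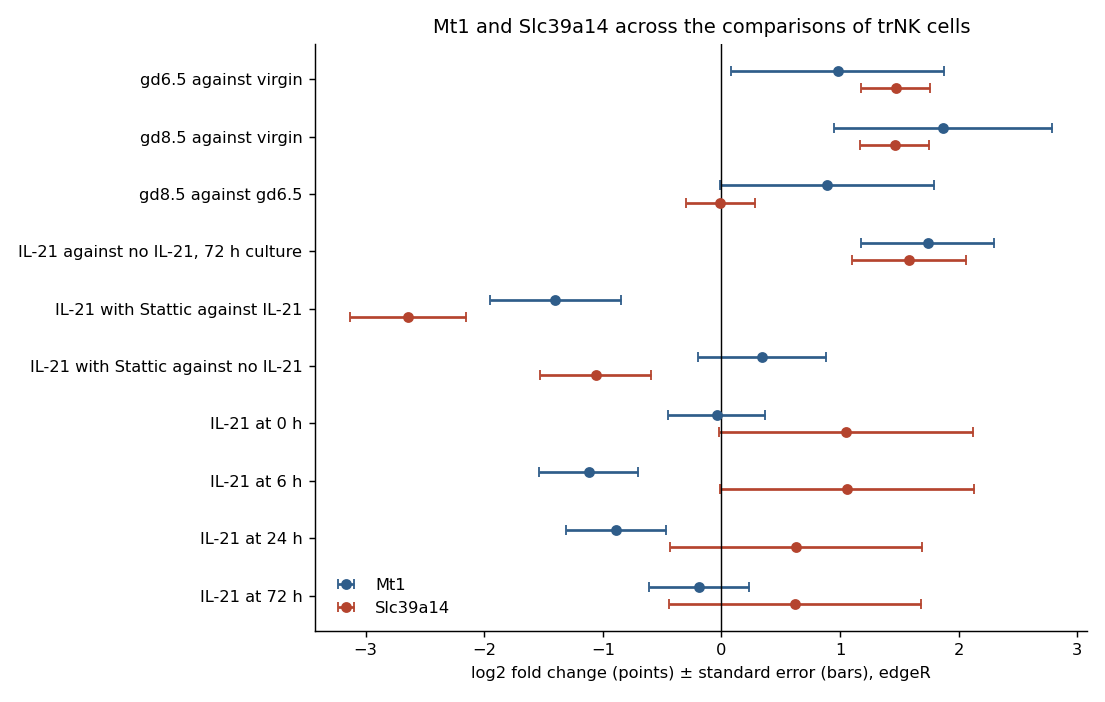
Log2 fold change of Mt1 (blue) and Slc39a14 (red) along the horizontal axis, as points with bars of 1 SE from edgeR (2 libraries per group), in 10 comparisons of gestation, 72 h culture and time course from top to bottom. Mt1 stands at 1.74 with IL-21 in the 72 h culture and at -1.12 with IL-21 at 6 h of the time course, while Slc39a14 is above 0 in both.

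The 72 h culture asks what IL-21 and the STAT3 inhibitor did to trNK-V cells. Mt1 was at 105 and 92 RPKM without IL-21, 218 and 345 RPKM with IL-21, and 48.8 and 143 RPKM with IL-21 and Stattic. Both IL-21 libraries lay above the other 4, and the Stattic libraries lay on both sides of those without IL-21. With IL-21 it was higher by 1.74 ± 0.56 on the log2 scale (3.33-fold, unadjusted p = 0.0174, adjusted p = 0.869, edgeR), and Stattic against IL-21 alone differed by -1.4 ± 0.55 (unadjusted p = 0.0395, adjusted p = 0.371, edgeR), a value that ran from -2.49 without Stattic replicate 2 to -0.78 without Stattic replicate 1. Over other scalings, filters and tests the IL-21 value stayed between 1.65 and 1.78, with adjusted p-values from 0.00728 to 1. Mt2 had 6 and 11 reads without IL-21, 23 and 27 with IL-21 and 8 and 7 with Stattic, the same order as Mt1.

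Slc39a14 was also highest with IL-21. It was at 1.51 and 2.48 RPKM without IL-21, 4.38 and 5.62 RPKM with IL-21, and 0.921 and 0.579 RPKM with IL-21 and Stattic, 3 ranges that did not overlap. On the log2 scale the differences were 1.58 ± 0.48 with IL-21 (unadjusted p = 0.0133, adjusted p = 0.786), -2.64 ± 0.49 for Stattic against IL-21 alone (unadjusted p = 0.00116, adjusted p = 0.149) and -1.06 ± 0.47 for Stattic against no IL-21 (unadjusted p = 0.0594, adjusted p = 0.363), all by edgeR. DESeq2 called the 6.24-fold difference between Stattic and IL-21 alone (adjusted p = 1.05e-04). Slc39a10 was at 5.75 and 2.48 RPKM without IL-21, 2.26 and 3.38 RPKM with IL-21 and 1.72 and 1.13 RPKM with Stattic, the lowest of the 3. Mtf1 was highest with Stattic, at 4.44 and 3.66 RPKM against 2.37 to 3.03 RPKM in the other 4 libraries, with a log2 fold change of 0.91 ± 0.44 against no IL-21 (edgeR adjusted p = 0.396). Slc30a1 ranged from 0 to 1.04 RPKM with no separation of the groups with and without IL-21.

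The summed late trNK markers were also highest with IL-21 in this culture. With Stattic they stayed above the level without IL-21, as Mt1 and Slc39a14 did not. Their sum was 5920 and 8490 CPM over the 2 libraries without IL-21, 76300 to 84500 CPM with IL-21 and 22300 to 25400 CPM with Stattic. Most of it was Spp1 and Gzmb, while Cd55 was at 35.9 to 39.6 RPKM without and 37.4 to 42.8 RPKM with IL-21. The trNK markers went from 2930 and 2910 CPM without IL-21 to 902 and 1110 CPM with it. The part of these markers in the values of Mt1 and Slc39a14 was not tested. By edgeR 0 of 6 genes were called with IL-21, where 0% of all 13647 genes were, 0 for Stattic against IL-21 alone, where 0.00733% were, and 0 for Stattic against no IL-21, where 0.154% were. At an unadjusted p below 0.05 the counts were 2, 2 and 0 of 6, against 5.2%, 12.7% and 14.6% of all genes. DESeq2 called 0, 1 and 0 of 6, against 1.4%, 5.43% and 7.38% of all genes, and limma called 0 in each, against 4, 19 and 60 of all genes.

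The time course gave a different picture for Mt1. At 0 h it was at 134 and 158 RPKM without IL-21 and 166 and 116 RPKM in the cells labelled with IL-21, overlapping ranges, and the labels do not say how long those cells had met IL-21. At 6 h it was at 165 and 205 RPKM without and 93.7 and 78.8 RPKM with IL-21, and at 24 h at 205 and 222 RPKM without and 119 and 129 RPKM with IL-21. At these 2 times both IL-21 libraries lay below both libraries without it. The log2 fold change was -1.12 ± 0.42 at 6 h (unadjusted p = 0.0213, adjusted p = 0.967) and -0.89 ± 0.42 at 24 h (unadjusted p = 0.0545, adjusted p = 0.962), by edgeR with n = 2 per group. At 72 h, the time of the other culture, Mt1 was at 168 and 87.7 RPKM without and 85.1 and 138 RPKM with IL-21, which overlap, and the log2 fold change was -0.19 ± 0.42, from -0.89 to 0.29 over the libraries left out. The difference between the IL-21 effects at 72 h and 6 h was 0.92 ± 0.59 (edgeR unadjusted p = 0.144), from 0.23 to 1.4 over the libraries left out. The mitochondrial share was also lower with IL-21, at 3.57% and 3.78% without and 2.54% and 1.9% with it at 6 h. At 24 h it was 4.76% and 4.58% against 2.28% and 2.8%, and its part in the values of Mt1 was not tested. The trNK markers summed to 2590 and 2540 CPM without and 1100 and 1170 CPM with IL-21 at 6 h. The summed late trNK markers were higher with IL-21 at 6 h (16100 and 18000 CPM without and 45900 and 56700 CPM with it), at 24 h (14800 and 15500 CPM against 33500 and 36000 CPM) and at 72 h (3040 and 6250 CPM against 12900 and 16100 CPM). Most of each sum was Spp1 and Gzmb, with 2417767 and 959234 reads in replicate 1 at 6 h with IL-21. Tnfrsf9 and Prf1 were also higher with IL-21 at 6 h. Cd55 was lower there, at 38.1 to 42.6 RPKM without and 29 to 35.3 RPKM with it. Summed markers of ILC1 cells were lower with IL-21 at 6 h (196 and 261 CPM against 115 and 142 CPM) and at 24 h (293 and 298 CPM against 103 and 119 CPM), and those of cNK cells at 6 h (2690 and 2960 CPM against 2100 and 2450 CPM) and at 24 h (3890 and 4130 CPM against 2250 and 2680 CPM). The ILC1 fall was mainly that of Ltb, with 12544 and 10255 reads without and 2496 and 1517 with IL-21 at 6 h. Cxcr6 went the other way at 6 h, with 3047 and 1825 reads without and 3924 and 2569 with IL-21. The cNK sum was mostly Klra4 and Klra8. The part of these markers in the levels of Mt1 was not tested.

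Without IL-21, Mt1 differed over time by 0.27 ± 0.42 from 0 to 6 h, 0.3 ± 0.42 from 6 to 24 h and -0.5 ± 0.42 from 24 to 72 h on the log2 scale. Slc39a14 was low in all 16 libraries, between 0.123 and 1.46 RPKM. With IL-21 it was at 1.02 and 1.4 RPKM at 6 h against 0.781 and 0.385 RPKM without, and at 0.778 and 0.916 RPKM at 24 h against 0.3 and 0.716 RPKM, higher in both libraries at both times. The log2 fold changes of 1.06 ± 1.07 and 0.63 ± 1.06 did not exceed their errors and ran from 0.69 to 1.56 and from 0.12 to 1.41 over the libraries left out, and at 72 h the IL-21 pair was at 1.28 and 0.123 RPKM, the highest and lowest of the 4 libraries. Slc39a10 ran from 0.177 to 3.68 RPKM over the course with no steady order, and Mt2 had between 1 and 24 reads per library.

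For the exporter Slc30a1 and its regulator Mtf1, replicates of the course disagreed widely. Slc30a1 had 30 and 63 reads at 0 h, 0 and 20 at 6 h, 0 and 0 at 24 h and 180 and 20 at 72 h without IL-21. With IL-21 it had 8 and 132, 180 and 9, 34 and 55, and 332 and 282 reads at the same times, so its IL-21 libraries were higher at 24 h and at 72 h and overlapped before. By edgeR, the 24 h difference had an unadjusted p of 0.012 and an adjusted p of 0.714, and 72 h against 24 h without IL-21 had an unadjusted p of 0.00569 and an adjusted p of 0.0632. DESeq2 called both (adjusted p = 0.0321 and 3.02e-04), and limma called the second (adjusted p = 0.0382). A library of 0 reads in a course of at least 28539465 reads per library allows up to 3 reads by counting error alone. Mtf1 lay between 1.02 and 3.32 RPKM in the 12 libraries up to 24 h, and at 72 h had 226 and 2 reads without IL-21 and 336 and 337 with it. Without the 72 h library of 226 reads, edgeR called Mtf1 and Slc39a10 for IL-21 at 72 h and for 72 h against 24 h, and Mtf1 for the difference of the IL-21 effects, so those calls would rest on a single library with few genes detected. In that fit 14.6%, 17.1% and 10.6% of all genes were called, and the remaining 72 h library without IL-21 was assumed to vary like the other groups. Without the other 72 h library, Slc30a1 was called for 72 h against 24 h (edgeR adjusted p = 0.0231), with 8.7% of all genes called.

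In the course, 0 of 6 genes were called by edgeR in each of 8 comparisons. The share of all 14879 genes called for IL-21 was 0% at 0 h, 0.0672% at 6 h, 0.00672% at 24 h and 5.07% at 72 h, and without IL-21 it was 0% for 6 h against 0 h, 0% for 24 h against 6 h and 7.68% for 72 h against 24 h. It was 2.47% for the IL-21 effect at 72 h minus that at 6 h. At an unadjusted p below 0.05 the counts were 1 of 6 for IL-21 at 6 h, IL-21 at 24 h and 72 h against 24 h, against 4.5%, 5.17% and 22% of all genes, and 0 in the other 5 comparisons, among them IL-21 at 72 h with 19.5% of all genes. DESeq2 called 1 of 6 for IL-21 at 24 h and for 72 h against 24 h, beside 1.38% and 17.4% of all genes. It called 0 of 6 in the rest, where the share of all genes was 14.8% for IL-21 at 72 h, 8.83% for the difference of the IL-21 effects and from 0.276% to 1.28% in the other 4. limma called 1 of 6 for 72 h against 24 h, beside 10.7% of all genes, and 0 in the rest, where it called 755 of all genes for IL-21 at 72 h, 421 for the difference of the IL-21 effects and 0 to 63 in the other 5.

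**Figure D3:**
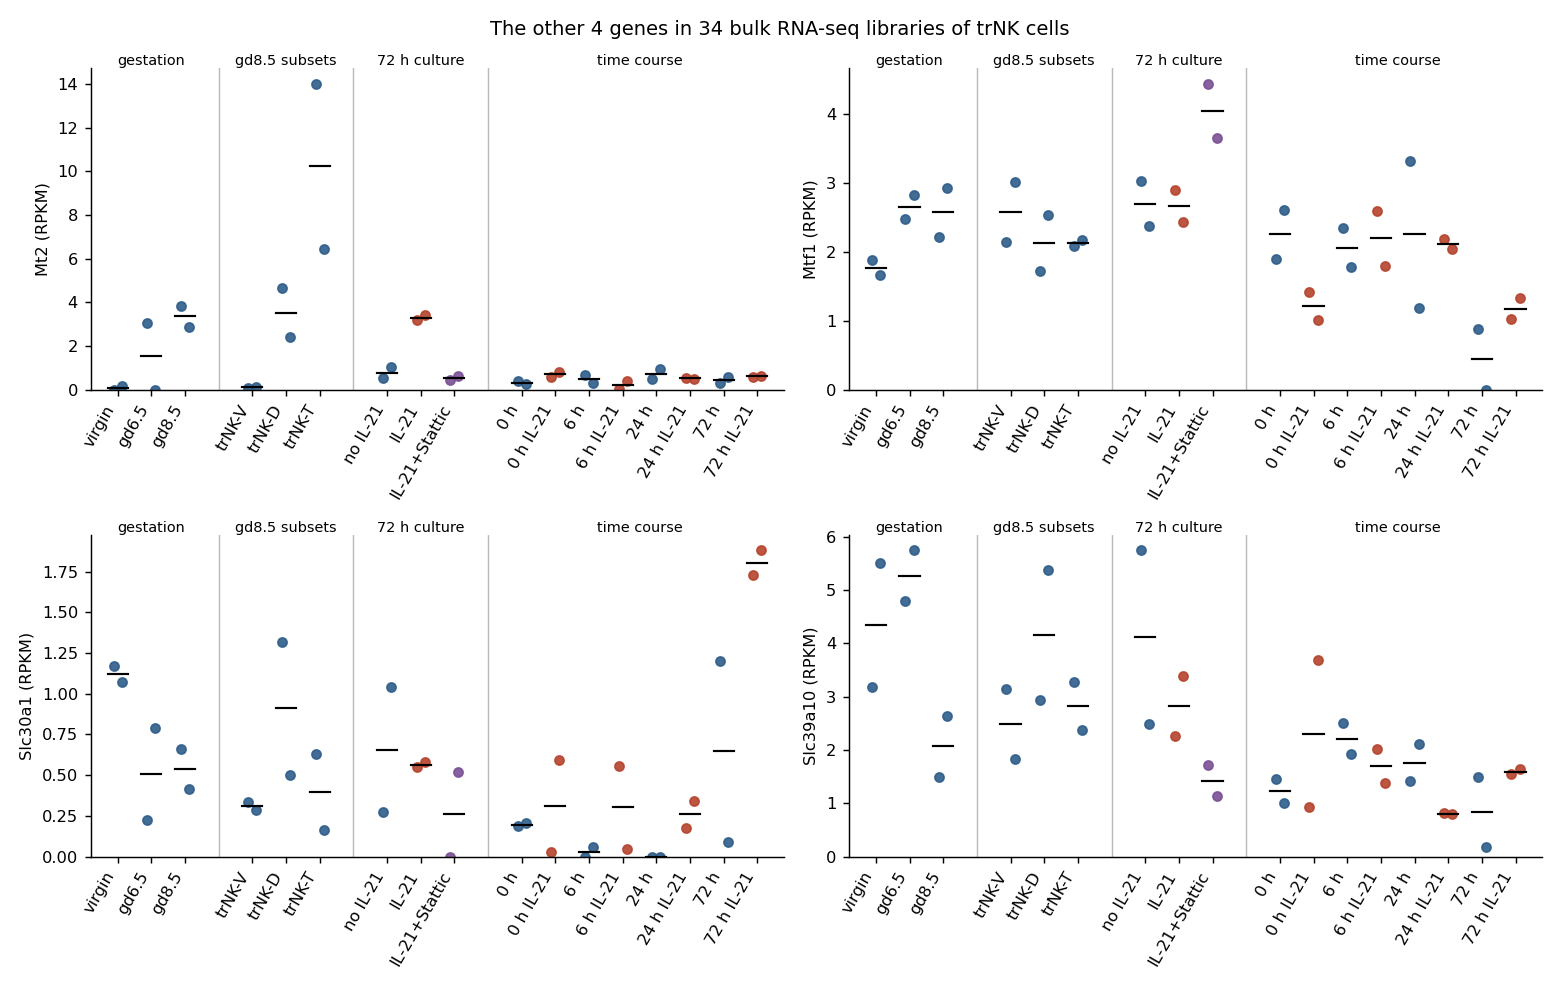
Level in RPKM of Mt2, Mtf1, Slc30a1 and Slc39a10 in each of the 34 bulk libraries, 1 point per library, a line at each group mean and 1 panel per gene (red with IL-21, purple with IL-21 and Stattic). Among the gd8.5 subsets Mt2 is highest in trNK-T, at 14 and 6.45 RPKM, and the replicates of Slc30a1 are far apart in the time course.

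Other genes of zinc and metal handling did not pass. Of 23 further metallothionein and zinc transporter genes, 13 to 15 were tested in an experiment, and of 16 iron, copper and redox genes such as the ferritins Fth1 and Ftl1, 14 were tested. In all 14 comparisons edgeR called 0 of either list. Over the 14 comparisons the median log2 fold change of the zinc list ran from -0.45 for the IL-21 effect at 72 h minus that at 6 h (all genes, 0.26) to 0.57 for 6 h against 0 h without IL-21 (all genes, 0). The genes above 0 ran from 2 of 15 for gd8.5 against gd6.5 to 10 of 13 for 6 h against 0 h. The median of the iron, copper and redox list ran from -0.26 for IL-21 at 24 h to 0.3 for Stattic against no IL-21.

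A list of 10 genes known to rise with metal or oxidative stress was examined in the 72 h culture. For IL-21 with Stattic against no IL-21, which differ by both agents, all 10 had log2 fold changes above 0. Their median was 4.59, against -0.09 for all genes, and edgeR called 4 of them, beside 0.154% of all genes. For Stattic against IL-21 alone all 10 were above 0 with a median of 2.68, and for IL-21 against no IL-21 9 were, with a median of 1.23. Of the list 0 were called in either, beside 0.00733% and 0% of all genes. Hmox1, the heme-degrading enzyme induced by oxidants and heavy metals, was at 23.9 and 17.7 RPKM without IL-21, 190 and 513 RPKM with IL-21 and 2640 and 2690 RPKM with Stattic, a rise of 7.33 ± 0.6 on the log2 scale (edgeR adjusted p = 0.0233). The HSP40 co-chaperone Dnajb1 rose from 26.7 and 34.7 to 601 and 622 RPKM (log2 fold change 4.67 ± 0.48, edgeR adjusted p = 0.0361). The other called genes were the near-identical heat shock genes Hspa1a and Hspa1b, whose reads may be split between them and which are uncertain one by one, at 187 and 156 RPKM and 598 and 430 RPKM with Stattic against at most 0.382 RPKM without IL-21. Mt1, in the same libraries, differed by 0.34 ± 0.54 (edgeR adjusted p = 0.874), and Slc30a1 by -0.89 ± 2.16. Leaving out a library moved the value of Mt1 from -0.7 to 1 and that of Slc30a1 from -8.78 to 0.25, and other settings took Slc30a1 down to -3.82, so either sign was found for both genes. In the time course 7 genes of the stress list were tested. With IL-21 all 7 were above 0 at 6 h with a median of 1.7, 6 at 24 h with 0.85 and 3 at 72 h with -0.2. For all genes the medians were 0, 0.03 and 0.01. By edgeR 0 of the list were called at these times, beside the shares of all genes given for the course above.

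Genes induced by glucocorticoids were examined because metallothioneins share that response. Of 7 genes, 6 were tested in the course, and Fkbp5, a co-chaperone of the glucocorticoid receptor, and Tsc22d3, its target GILZ, were called higher with IL-21 at 72 h (edgeR adjusted p = 4.15e-04 and 5.28e-04) and lower at 72 h than at 24 h without IL-21 (2.72e-04 and 5.16e-04), and both were also called for the IL-21 effect at 72 h minus that at 6 h. Mt1 was not called in any of these comparisons, in which 5.07%, 7.68% and 2.47% of all genes were called. The medians of the list were 1.7, -1.84 and 0.7. All of these comparisons use the same 72 h libraries without IL-21, with 10724 and 11665 genes detected. In the gestation and 72 h culture experiments 0 of 7 were called by edgeR, with medians from -0.8 for Stattic against IL-21 alone to 1.17 for IL-21 against no IL-21.

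Across the single cells, 8907 of 15175 cells passed the limits on genes and mitochondrial share, and they fell into 17 clusters when the 4 genes were left out of the clustering. Clusters 1 and 2 carried the late trNK markers and are called late trNK-like, a name that rests on that list alone. The list holds Scin, Epas1 and Ctsg and was chosen with earlier results of these data known. The general trNK markers scored -0.97 in cluster 1 and 0.32 in cluster 2 (mean log2 ratio to all other cells). The NK markers scored -0.92 and 0.42, so both lists were below other cells in cluster 1. Cluster 1 (1035 cells) was led by Scin, Epas1 and Ctsg and cluster 2 (744 cells) by the granzymes Gzmf, Gzmc, Gzme and Gzmd, with Tnfrsf9 and Spp1. Cluster 7 (1347 cells), led by Cxcr6, Tcrg-C4 and Cd7, had the highest score for virgin-type trNK markers but also ILC1 markers (Cxcr6 and Ltb) among its leading genes, and was left unnamed. All these are cells of 1 pooled sample, so intervals are exact Poisson intervals at 95% that cover counting error only.

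Both metallothioneins were concentrated in the late trNK-like cells. Mt1 reached 1950 CPM (1910 to 1990) in cluster 1 and 663 CPM (637 to 690) in cluster 2, against 118 CPM (107 to 130) in cluster 7, 117 CPM in the cNK-like cluster and 146 CPM in B-like cells, a level that free RNA in the sample can also give. Mt2 was at 2050 CPM (2010 to 2090) in cluster 1, 445 CPM (423 to 467) in cluster 2, 62.5 CPM (54.4 to 71.5) in cluster 7 and 95.7 CPM in B-like cells. Of all UMIs in the kept cells, 70.4% of Mt1 and 83.3% of Mt2 lay in the 2 late clusters, which held 32.2% of the UMIs of all genes. The kept cells held 18413 of the 68468 UMIs of Mt1 and 15271 of the 58432 of Mt2, so these shares leave out most of them. Outside them, Mt1 was at 517 CPM (443 to 601) in cluster 14, unnamed, with a median of 742 UMIs per cell, 512 CPM in dividing cells, 502 CPM in cluster 5, led by Mcpt4, Cd209a and Tpsb2 (genes of mast and other myeloid cells), 484 CPM in macrophage-like and 429 CPM in stromal-like cells. Mt2 was at 315, 376, 151, 83.2 and 187 CPM in the same 5 clusters.

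Between the 2 late clusters, Mt1 and Mt2 were higher in the Scin cluster, and Slc39a14 and Slc39a10 in the Gzmf cluster. Mt1 was 2.94 times (2.81 to 3.08) and Mt2 4.61 times (4.37 to 4.86) as high in the Scin cluster as in the Gzmf cluster. Slc39a14 was 3.35 times (2.84 to 3.97) as high in the Gzmf cluster, at 127 CPM (115 to 139) against 37.9 CPM (32.9 to 43.4), and the Scin cluster was level with cluster 7 at 38.0 CPM. Slc39a10 was sparse but took the same side as Slc39a14, at 16 CPM (58 UMIs) against 5.91 CPM (32 UMIs), while cluster 7 was at 14.6 CPM. In B-like cells Slc39a14 was at 17.8 CPM and Slc39a10 at 21.1 CPM, so of the 2 importers only Slc39a14 stood above them in the Gzmf cluster. Some genes of the Slc30 family outside the list also stood lower in the Scin cluster. Slc30a5 was at 17.0 against 39.9 CPM, Slc30a6 at 7.2 against 15.7 CPM and Slc30a9 at 14.6 against 31.4 CPM. The lower level there was thus not particular to Slc39a14 and Slc39a10. The pattern was described after it was seen. It had the same order at clustering resolutions of 0.4 and 1.2 and with no upper limit on genes, where Mt1 was at 1750 against 941 CPM and Slc39a14 at 40.1 against 132 CPM. With no upper limit, however, the Scin-led cluster scored only 0.28 for the late markers and fell outside the late class. The Gzmf-led cluster scored 0.92 there. With limits set on UMIs, as the paper's methods state them, cells led by Scin and by Gzmf fell in 1 cluster, and the 2 could not be compared.

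**Figure D4:**
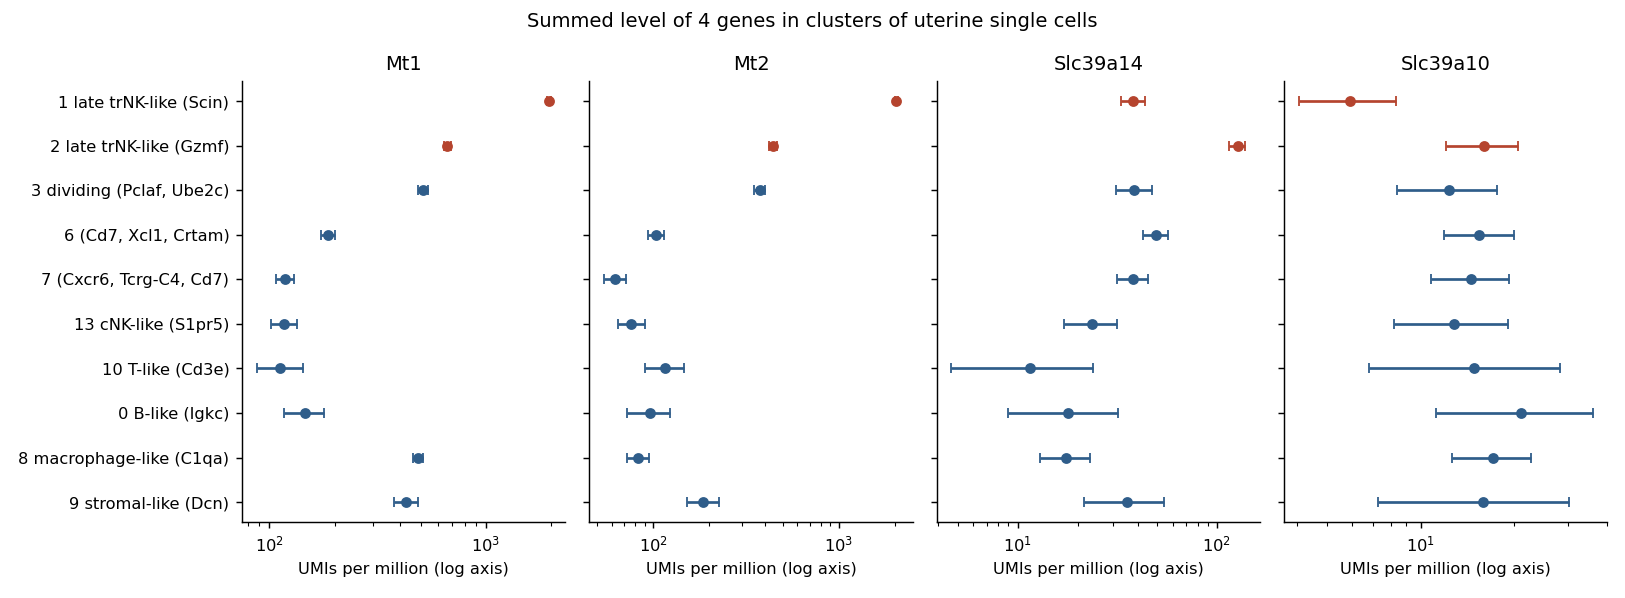
CPM of summed UMIs (log axis) of Mt1, Mt2, Slc39a14 and Slc39a10 in 10 of the 17 single-cell clusters (late trNK-like in red), with exact 95% Poisson intervals as bars. Mt1 and Mt2 are highest in the Scin-led cluster 1, at 1950 and 2050 CPM, and Slc39a14 in the Gzmf-led cluster 2, at 127 CPM.

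Cell by cell, Mt1 had a UMI in 79.7% of cells of cluster 1, 62.1% of cluster 2 and 20.6% of cluster 7, against 18.7% of B-like cells. These clusters differed in depth, with medians of 5488, 5174, 2229 and 1824 UMIs per cell. Each cell was then thinned to 1000 UMIs, leaving out 9, 26, 43 and 14 shallower cells. The shares became 58.6%, 31.1%, 9.89% and 11.6%, so cluster 7 was near the level of B-like cells. Clusters outside the late class came near cluster 2 by this measure. The thinned share of Mt1 was 31.8% in macrophage-like, 29.1% in stromal-like and 24.6% in dividing cells. It was 26.2% in cluster 5 and 29.1% in cluster 14, so cluster 1 alone stood well above these. How much of the B-like level was free RNA was not tested. For Mt2 the thinned shares were 51.9%, 20.3%, 7.36% and 6.32%, and for Slc39a14 they were 3.8%, 11.8%, 2.99% and 1.05%. The metallothioneins were found together in 66.0% of the cells of cluster 1 and in 31.9% of cluster 2, and in neither gene in 15.9% and 29.7%. Within cluster 1 the level was uneven: the middle cell had 5 UMIs of Mt1, a cell at the 90th percentile 27, and the highest 102.

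The genes most like the metallothioneins were sought over 11989 genes by the correlation of log2 levels with the mean of Mt1 and Mt2 across the 34 libraries, with each experiment centred on its own mean. The highest were Alox5 (Pearson r = 0.838), which makes leukotrienes, Bcr (0.792), B4galt6 (0.772), the actin-severing Scin (0.769), the filopodial myosin Myo10 (0.767) and Wdr60 (0.762). The lowest were Syk (-0.789), a tyrosine kinase of immune receptors, D830025C05Rik (-0.783) and Chd3 (-0.764). Alox5 was at 18.2 to 27.2 RPKM in trNK-T, 8.72 to 18.8 RPKM in trNK-D and at most 0.503 RPKM in trNK-V. Among the 6 genes, r was 0.908 between Mt1 and Mt2, 0.598 between Mt1 and Slc39a14, 0.75 between Mt2 and Slc39a14, and between -0.361 and 0.178 for every other pair. The libraries include the subsets the genes were selected on and share depth and kit within an experiment, so these values describe the 34 libraries only.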

How the data were processed

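The authors deposited raw counts, whole reads per gene for each bulk library, and UMI counts per cell and gene for the single cells, without normalization. By the submitters' processing notes, HISAT2 2.1.0, featureCounts and mm10 were used, while the paper's methods name RSEM; the deposited tables have the layout of featureCounts. cDNA was made with the SMART-Seq HT kit and NEBNext libraries for 18 libraries and with a Vazyme kit for the 16 of the time course, so comparisons were made only within an experiment. Single cells were counted with BD Rhapsody software against GRCm39, in 2 tables that held the same 15175 cells split by gene and were joined.

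Counts of each experiment were fitted at once with edgeR 4.0.16 in R 4.3.3 (TMM, filterByExpr, quasi-likelihood test, no covariates, Benjamini-Hochberg adjustment over all genes tested). The study kept genes by RPKM above 10, which removes most transporters, and that filter was an alternative. Other alternatives were DESeq2 1.42.0, limma 3.58.1 with voom, RLE scaling, no filter, the compared groups alone, the replicate number as a block and leaving out each library. Standard errors are the log2 fold change divided by the root of its F value. The biological coefficient of variation was 0.544, 0.589, 0.792 and 0.909 in the gestation, subset, culture and course fits. Tested on simulated data with 200 genes changed 4-fold, the fit found 33.5% for gd8.5 against virgin (13238 genes), 3% for IL-21 in the 72 h culture (12728 genes) and 1% for IL-21 at 6 h (14218 genes), so a missed call says little about a gene.

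RPKM used the total counts of shared genes and the deposited gene lengths. Cells with more than 200 and fewer than 2500 genes and under 10% mitochondrial UMIs were kept (4171 cells were at or above the upper limit), and were clustered in scanpy 1.11.5 (2000 variable genes, 20 components, 20 neighbours, Leiden resolution 0.8), leaving out the members. The paper's methods state the limits of 200 and 2500 for UMI counts per cell, a reading kept here as an alternative. No doublet caller was run. Promoter sequences were taken from RefSeq for 5 of 6 members, and none was found in the table for Slc39a14.

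The members and all gene lists were chosen with earlier results of these data known. Named genes were the 6 members, genes of the fixed lists that were called, and the 6 genes with the highest and 3 with the lowest correlation to the mean of Mt1 and Mt2. Same-numbered replicates correlated from -0.213 to 0.297 in their deviations from the group means over the 4 experiments, so the numbers were not taken to pair the samples. The 6 samples of chromatin accessibility were not analysed here.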

Additional observations from a re-analysis of the deposited data

Results flagged for a closer look

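The effect of IL-21 on Mt1 pointed in opposite directions in 2 cultures: the log2 fold change was 1.74 in the 72 h culture and -1.12 at 6 h and -0.89 at 24 h of the time course, with both IL-21 libraries beyond both libraries without it each time. The difference was not tested, since the cultures came from separate experiments made with different kits. At 72 h of the course, the matching time, the libraries overlapped. Here and above, groups of 2 libraries can lie apart through spread alone, and the share of all genes that did so was not counted. The differences in this section were picked by such separation.

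Mtf1 was lower with IL-21 at 0 h (-0.88) and higher at 72 h (1.45), and Slc39a10 was lower at 24 h (-1.24) and higher at 72 h (0.93), in both libraries each time. The 0 h comparison was taken as a check of the background, and 0% of all genes were called in it by edgeR. The labels do not say how long the 0 h cells had met IL-21. The Mtf1 value at 72 h ran from 0.46 to 7.57 and that of Slc39a10 from 0.11 to 3.01 when single libraries were left out. Neither difference was tested. With all libraries in the fit neither gene was called at these times, and both were called at 72 h without replicate 1 of the 72 h cells grown without IL-21 (edgeR adjusted p = 2.93e-04 for Mtf1 and 0.0317 for Slc39a10). No group had the 4 libraries needed to look for an outlying library by its gap.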

How the results depend on the processing

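Over 510 values of the 6 genes under other settings, 0 reversed, 11 changed sign within 1 SE of 0 and 14 became calls. With no filter on low counts, 1 gene was called for gd6.5 against virgin (Slc39a14; 3.89% of all genes), gd8.5 against gd6.5 (Slc39a10; 1.92%), IL-21 in the 72 h culture (Mt1; 0.687%) and 72 h against 24 h (Slc30a1; 6.93%), and 2 for gd8.5 against virgin (2.13%) and for Stattic against IL-21 (2.17%), Mt1 and Slc39a14 in both. DESeq2 called 1 in 5 comparisons and limma 1 in 1, as given with the results. The number of calls over all genes ran from 0 to 1143 by edgeR, 41 to 2596 by DESeq2, 0 to 1591 by limma and 3 to 1829 with no filter. The cause of these shifts was not tested.

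The fit with the replicate number as a block called 0 of the 6 genes in all 14 comparisons, beside 0% of all genes in gestation and the 72 h culture and up to 6.53% in the course, and the numbers were not taken to pair the samples.

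Leaving out a library gave 0 to 1 calls for gd6.5 and gd8.5 against virgin (0% to 7.38% and 0% to 4.17% of all genes) and for the IL-21 effect at 72 h minus at 6 h (0.67% to 10.6%), 0 to 2 for IL-21 at 72 h (4.72% to 14.6%) and for 72 h against 24 h (3.92% to 17.1%), and 0 elsewhere (at most 0.811%). Mt1 ranged from 3.76 to 4.35 (trNK-D against trNK-V), 0.79 to 1.75 (trNK-T against trNK-D) and 4.82 to 5.78 (trNK-T against trNK-V), and Mt2, with 1 read per trNK-V library, from 4.39 to 5.24, 0.98 to 2.09 and 5.86 to 6.93. Without gd6.5 replicate 1, gd6.5 against virgin turned to -1.24 for Mt1 and -3.22 for Mt2 (over the 4 libraries left out, -1.24 to 2.03 and -3.22 to 7.19), and without trNK-D replicate 2, Slc39a10 in trNK-T against trNK-D turned from -0.5 to 0.06 (range -0.91 to 0.06).

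In single cells, the summed Mt1 and Mt2 level of late cells was 2840 CPM, 1720 CPM with no upper limit on genes (where the Scin-led cells fell outside the late class), 2860 CPM at resolution 0.4 and 3090 CPM at 1.2. In the unnamed cluster with the highest score for virgin-type markers it was 181 CPM, and 207 with UMI limits, 219 with no upper limit, 243 at resolution 0.4 and 192 at 1.2. With UMI limits no cluster met the naming rule for late cells, and the 313 cells of the cluster led by both Scin and Gzmf were at 998 CPM for Mt1 and 863 CPM for Mt2.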

Other observations

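Iron genes also differed between the 2 late trNK-like single-cell clusters. They were looked up after the metallothionein values were seen, and come from 1 pooled sample with no test. The ferritin genes, which store iron, were higher in the Scin-led cluster, where Fth1 was at 2760 CPM (2720 to 2810) and Ftl1 at 1770 CPM (1740 to 1810), against 1160 CPM (1120 to 1190) and 450 CPM (429 to 472) in the Gzmf-led cluster. The transferrin receptor gene Tfrc, which brings iron in, was the other way, at 37.1 CPM (32.2 to 42.6) against 140 CPM (128 to 153). Zinc transporters also stood lower in the Scin-led cluster, with Slc39a6 at 15.9 against 51.4 CPM, Slc39a1 at 17.2 against 46.5 CPM and Slc30a7 at 15.1 against 35.8 CPM.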
